A study of Drosophila melanogaster with 4 samples.

Results

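Hedgehog (hh) and patched (ptc) are the ligand gene and the receptor gene of Hedgehog signalling. The peaks of TCF around them are described here for whole embryos of Drosophila melanogaster whose stage is labelled as 0 to 8 h. The collection protocol also mentions a later egg-laying window, so the stage is not certain. These peaks came from ChIP-seq, in which DNA bound by a protein is recovered with an antibody to it after cross-linking and is then sequenced. A peak was assigned to a locus by position alone, where its midpoint lay on 3R from 18930000 to 18990000 (the hh region, 60 kb) or on 2R from 4520000 to 4570000 (the ptc region, 50 kb), in FlyBase release 5. This gave 9 peaks in the hh region and 11 in the ptc region, 20 of the 4589 peaks that the authors deposited.

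There were 2 libraries from ChIP and 2 from input DNA, which was not selected with the antibody, and the deposited list is a single set for all of them. The antibody was an unpurified polyclonal rabbit serum to the N-terminal part of TCF, which the gene pangolin encodes. All libraries came from embryos of the strain Y cn bw sp. Its genotype carries y[1] and oc[R3.2], then Gr22b[1] together with Gr22d[1] and cn[1], then CG33964[R4.2] followed by bw[1] and sp[1]; it also has LysC[1] and lab[R4.2], besides MstProx[1], GstD5[1] and lastly Rh6[1]. The sex of the embryos is given as unknown, and whole embryos mix all cell types and several stages, so a peak cannot be placed in the cells that make Hedgehog or in those that receive it.

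In each segment of the embryo, Hedgehog is secreted by cells that express Engrailed and is bound by Patched on neighbouring cells. Patched holds the membrane protein Smoothened in check, and binding of Hedgehog lifts that inhibition, so that the transcription factor Ci activates targets that include ptc itself and, in the embryo, wingless. Wingless in turn signals back to the Engrailed cells, and TCF is the DNA-binding protein through which Wingless acts on its target genes. These 2 loci thus lie on the side of the circuit that sends Hedgehog and on the side that receives it.

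The file holds 1 score per peak and nothing per library, so no replicate error can be given and sequencing depth is unknown. Peaks of 1 locus are not replicates of each other. The differences between hh and ptc below are therefore descriptions of this list, without a test. Intervals cover counting error only.

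TCF peaks at hh, the gene of the secreted ligand, consisted of 1 peak well above the others, at the low-coordinate end of the group, and 8 lower ones at higher coordinates. The strongest lay on 3R at 18955398 to 18958324, was 2927 bp wide and had a score of 211.59, the authors' value for the peak, which is higher for a larger excess of ChIP reads. It ranked 135 of 4589 peaks in the list and 29 of the 1071 on 3R. The scores match the upper tail of a Poisson distribution with an expected pileup of 71.7 reads, where pileup is the number of read fragments stacked over a position. On that scale the strongest hh peak had an implied pileup of 468, or 6.52-fold over the expectation (95% exact Poisson interval 5.95 to 7.14).

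The next peaks at hh were lower. The second by score, at 18970988 to 18971923, scored 73.12 over 936 bp and had an implied 3.81-fold (3.37 to 4.29). The strongest peak's pileup was 1.71 times that of this one (exact conditional binomial 95% interval 1.47 to 2.00). The third, at 18981670 to 18982987, scored 57.43 over 1318 bp with 3.42-fold (3.00 to 3.87), and the fourth, at 18968363 to 18969645, scored 36.52 over 1283 bp with 2.83-fold (2.45 to 3.25). The second exceeded the third by 1.11 times in pileup (0.934 to 1.33) and the third exceeded the fourth by 1.21 times (0.998 to 1.46). Both intervals include equal pileups, and the interval for the strongest peak over its follower does not. Since peaks were ordered by score, no ratio could fall below equality, and the intervals do not allow for that ordering.

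The remaining 5 hh peaks scored between 9.11 and 25.81, below the 33.38 that marks the highest 25% of the list. The widest of these lay directly beside the strongest peak, 486 bp from it, at 18958811 to 18960800. It spanned 1990 bp but scored only 25.81, with 2.48-fold (2.13 to 2.87). The median score of the 746 peaks wider than 1000 bp and up to 2000 bp in the whole list was 51.9 (interquartile range 29.5 to 102), so this peak was below the lower quartile for its width. The peak with the lowest score at hh, at 18981227 to 18981464, was 238 bp wide with a score of 9.11 and 1.78-fold (1.49 to 2.12). The other 3 weak peaks were 222 to 575 bp wide and had scores of 15.93, 12.77 and 10.19.

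At ptc, the gene of the receptor, strong TCF signal was split over 4 broad peaks, none as high as the strongest at hh. The highest lay on 2R at 4540615 to 4543898, was 3284 bp wide and scored 153.13, which ranked 205 in the list and 29 of the 902 peaks on 2R. Its implied pileup was 393, or 5.48-fold over the expectation (4.95 to 6.05). The highest peaks of both loci thus held the same rank on their arms.

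The second ptc peak by score, at 4528290 to 4530159, scored 101.54 over 1870 bp and had an implied 4.45-fold (3.97 to 4.96). The third, at 4523585 to 4527107, was the widest peak at either locus with 3523 bp, and it scored 82.66 with 4.03-fold (3.58 to 4.52). The fourth, at 4545139 to 4546747, scored 59.05 over 1609 bp with 3.46-fold (3.04 to 3.92). The step from first to second was 1.23-fold in pileup (1.06 to 1.43), smaller than at hh. The next 2 steps were 1.10-fold (0.938 to 1.30) and 1.17-fold (0.980 to 1.39), with intervals that include equal pileups. As at hh, the ordering by score fixed the direction of each step.

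The other 7 ptc peaks scored between 8.10 and 19.64, and 4 of them were no wider than 300 bp. The highest of the 7 lay at 4527223 to 4528078, in the short stretch between the peaks that scored 82.66 and 101.54. Its score of 19.64 was not on the fitted Poisson scale, so no fold is given for it. The lowest-scoring peak of both loci lay at 4539946 to 4540159, 455 bp from the highest ptc peak, with 214 bp, a score of 8.10 and 1.73-fold (1.44 to 2.06). The remaining 5 had scores of 14.00, 13.69, 11.31, 10.46 and 10.19. The 1069 peaks of up to 300 bp in the whole list had a median score of 9.92. Of the 4 ptc peaks of such widths, 3 were above it, with scores from 10.19 to 11.31. The 1 ptc peak over 300 and up to 500 bp was also above the median of its class, 13.1. Both ptc peaks over 500 and up to 1000 bp were below that of theirs, 22.3.

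**Figure D1:**
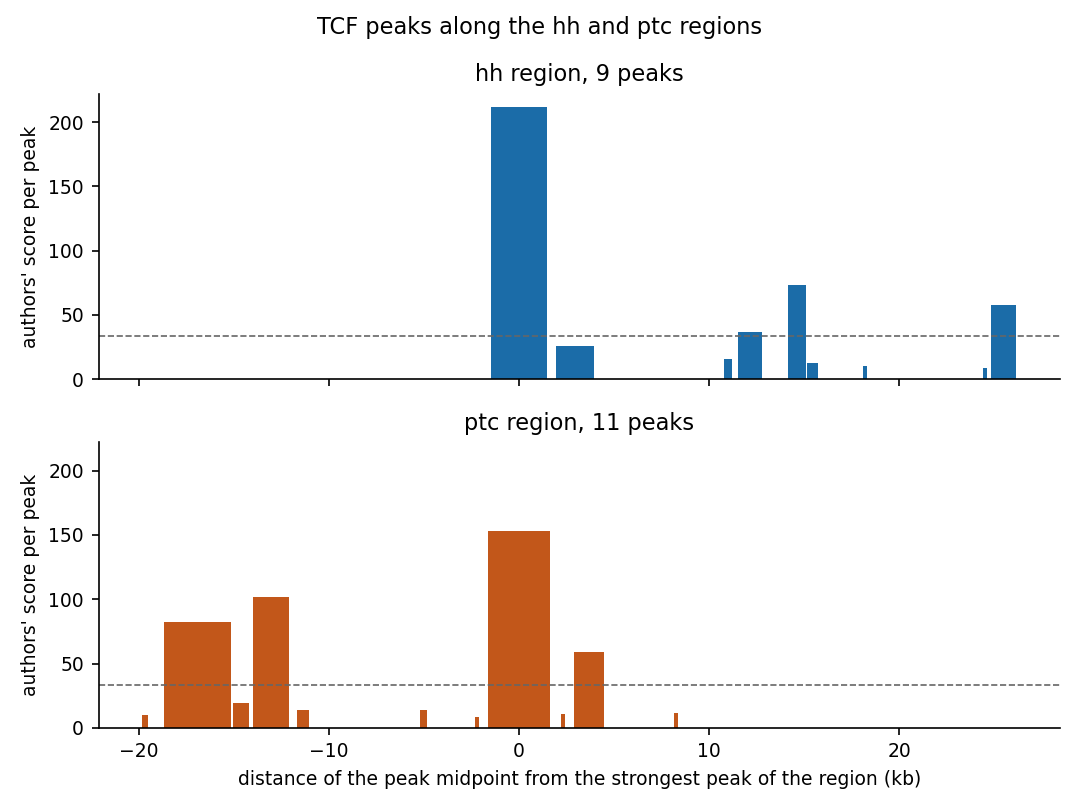
Score of each TCF peak (vertical axis, the authors' score) against the distance of its midpoint from the strongest peak of the same region in kb (horizontal axis, increasing release 5 coordinate), for hh above and ptc below. Bar width is the peak's width, and the dashed line at 33.38 is the score that marks the highest 25% of the list; the strongest hh peak of 211.59 stands at the start of its group, and the ptc peaks above the line form a pair on each side of a gap.

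Strong peaks were equal in number at both loci. Among the highest 25% of the list by score were 4 of 9 hh peaks (44.4%) and 4 of 11 ptc peaks (36.4%), against 25.3% of all peaks. Within the highest 10%, which holds 10% of the list by construction, were 1 hh peak and 3 ptc peaks. Within the highest 5% was 1 peak at each locus, against 5.03% of the list. Implied folds of at least 3 were found for 3 of 9 hh peaks and for 4 of the 10 ptc peaks with a fold, against 19.7% of the 4345 peaks with a fold.

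**Figure D2:**
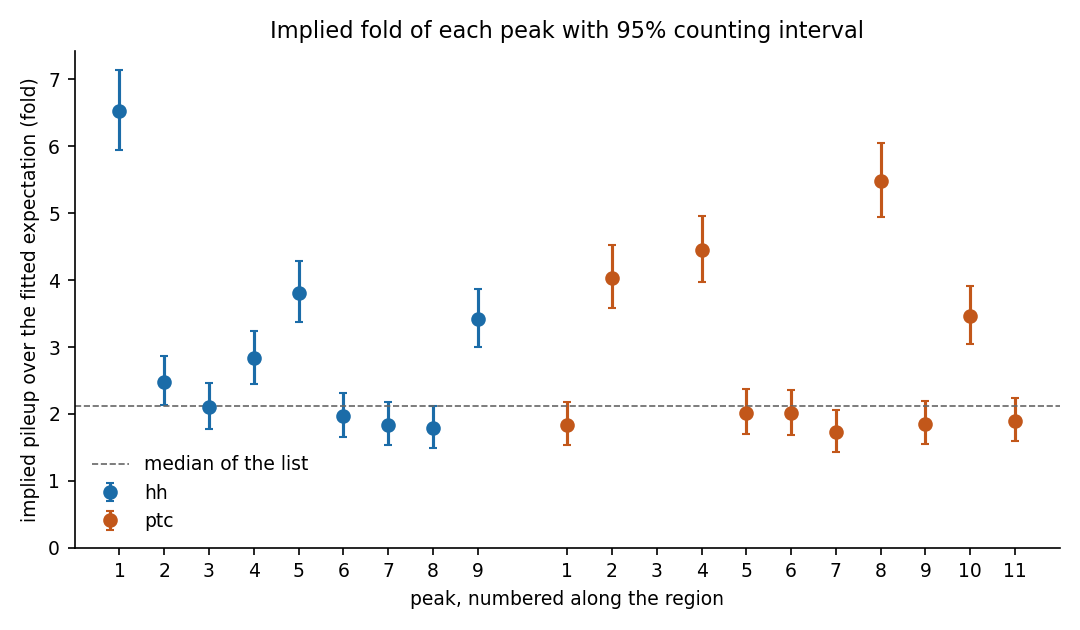
Implied pileup of each peak over the fitted expectation (vertical axis, fold) with its 95% exact Poisson interval, for the hh and ptc peaks numbered by increasing coordinate (horizontal axis). The dashed line is the median of the list, 2.12-fold; ptc peak 3 has no fold, and the first hh peak at 6.52-fold and the eighth ptc peak at 5.48-fold are the highest of their regions.

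Set side by side in order of score, the strongest hh peak exceeded the strongest ptc peak, and the order was the other way round for the peaks that followed. The pileup of the highest hh peak was 1.19 times that of the highest ptc peak (exact conditional binomial 95% interval 1.04 to 1.37). For the second peaks the ratio of hh to ptc was 0.856 (0.725 to 1.01), and for the third it was 0.848 (0.712 to 1.01). For the fourth it was 0.819 (0.677 to 0.989). The intervals at ranks 2 and 3 include 1, and those at ranks 1 and 4 end close to it. Each pileup was picked by the peak caller as a local maximum, which biases it upwards.

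The ptc peaks were broader in sum. Peaks covered 13084 bp, or 26.2%, of the ptc region and 9926 bp, or 16.5%, of the hh region. The strong peaks held 78.6% of the covered length at ptc and 65.1% at hh. The highest peak alone held similar shares, 25.1% at ptc and 29.5% at hh. Widths over 1000 bp were found for 4 peaks at each locus, against 19.9% of all peaks, and widths over 2000 bp for 2 ptc peaks and 1 hh peak, against 3.68%.

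Medians over the peaks of a locus were ordered the other way, since the ptc region held more weak, narrow peaks. The median score was 25.81 at hh and 14.00 at ptc, beside 16.3 over the whole list, and the median width was 936 bp at hh and 635 bp at ptc, beside 500 bp. Of the 50.2% of the list that scored at least 16.26, 5 were hh peaks and 5 were ptc peaks. Among these the median score was 57.4 at hh and 82.7 at ptc, and the median widths were 1318 and 1870 bp. Which locus had the higher median thus depended on the weak peaks.

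**Figure D3:**
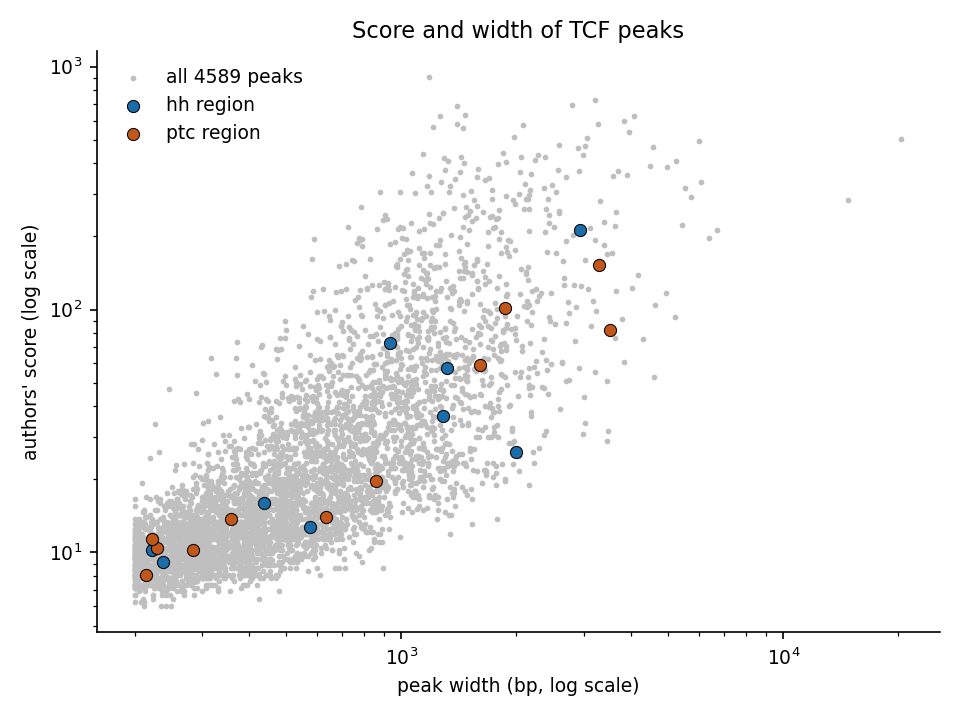
Score (vertical axis, log scale) against width in bp (horizontal axis, log scale) for all 4589 peaks in grey, with the 9 hh peaks in blue and the 11 ptc peaks in orange. Peaks of both loci run from the narrow, weak end of the list to its broad, strong end, and the hh peak of 1990 bp with a score of 25.81 and the ptc peak of 3523 bp with a score of 82.66 lie on the low side for their widths.

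Both loci occupied about the same length of chromosome. From the first to the last peak the group spanned 27.6 kb at hh and 28.1 kb at ptc, and peaks covered 36.0% and 46.5% of these spans. In the hh region the first 25.4 kb held no peak and the last 7.01 kb none, and in the ptc region the first 2.46 kb and the last 19.4 kb were free of peaks. Over the whole regions the density was 1.5 peaks per 10 kb at hh and 2.2 at ptc. No interval is given for these densities, since peaks of 1 locus are not independent counts. The densities also depend on where the limits were drawn, because the limits take in the stretches free of peaks.

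Outside the limits the nearest peaks scored below the list's median of 16.26, at hh on the low-coordinate side only slightly. As a baseline for distance, 37.65% of 60-kb stretches along 2L, 2R, 3L, 3R and X held no peak. Towards lower coordinates the next peak was 253 kb from the first hh peak, with a score of 15.93, and 268 kb from the first ptc peak, with a score of 7.38. Towards higher coordinates it was 24.8 kb from the last hh peak, with a score of 13.38, and 60.1 kb from the last ptc peak, with a score of 10.19. The first and last peaks inside the regions scored 211.59 and 57.43 at hh, and 10.19 and 11.31 at ptc. Each group of peaks was thus bordered on its low-coordinate side by a long stretch without a peak in this list.

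The strong peaks were laid out differently within these similar spans, and by themselves spanned 27.6 kb at hh and 23.2 kb at ptc. At ptc they formed 2 pairs. The peaks that scored 82.66 and 101.54 were 1182 bp apart, those that scored 153.13 and 59.05 were 1240 bp apart, and 10.5 kb lay between the pairs. At hh the strongest peak stood alone, followed after 10.0 kb by the peaks that scored 36.52 and 73.12, 1342 bp apart, and after another 9.75 kb by the peak that scored 57.43. Gaps between the edges of neighbouring peaks had a median of 914 bp at hh and of 505.5 bp at ptc. The longest were 6.84 kb at hh and 5.85 kb at ptc. Measured from midpoint to nearest midpoint, the order was the other way. The medians were 1141 bp at hh and 2204 bp at ptc, beside 2323 bp for peaks on the chromosome arms. Midpoint distances take in part of the widths of both peaks, so broad peaks lengthen them. The highest ptc peak, 3284 bp wide, was 2204 bp from its nearest neighbour by midpoint and 455 bp by edge. The value for the arms is therefore no baseline for the gaps between edges.

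Most weak peaks of both loci lay beside a strong one. A strong peak, meaning one in the highest 25% of the list, was within 1 kb of 4 of the 5 weaker hh peaks and of 5 of the 7 weaker ptc peaks, against 13.6% of 3412 weaker peaks on the chromosome arms. In windows of 60 kb with at least as many peaks as the hh region, this share was 22.0% of 888 weaker peaks. The distance of 1 kb was chosen after the positions were seen. The exceptions were 1 hh peak, 3014 bp from the nearest strong peak, and 2 ptc peaks, 3180 and 3632 bp from it. Whether such neighbours are separate sites or edges of the strong peaks cannot be told from a list without summits.

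Both regions were rich in TCF peaks compared with stretches of equal length. On 2L, 2R, 3L, 3R and X, 93 of 1952 windows of 60 kb (4.76%) held at least 9 peaks, as the hh region did, and 39 of 2344 windows of 50 kb (1.66%) held at least 11, as the ptc region did. The median window of either length held 1 peak. When the hh region was shortened to 50 kb it kept its 9 peaks, and 3.50% of windows of 50 kb held as many. The limits of the regions were drawn around the loci and the windows were not, which favours the regions.

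The covered length set the regions further apart from other windows than the best score did. At least as much covered sequence was found in 1.95% of windows of 60 kb for hh and in 0.512% of windows of 50 kb for ptc. A peak at least as high as the strongest was found in 6.56% of windows of 60 kb for hh and in 8.02% of windows of 50 kb for ptc. Each against windows of its own length, the ptc region was rarer than the hh region by number of peaks and by covered length. It was less rare by its best score. Windows of equal length, 50 kb, were compared only for the number of peaks, so the other 2 orders also carry the difference in length.

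**Figure D4:**
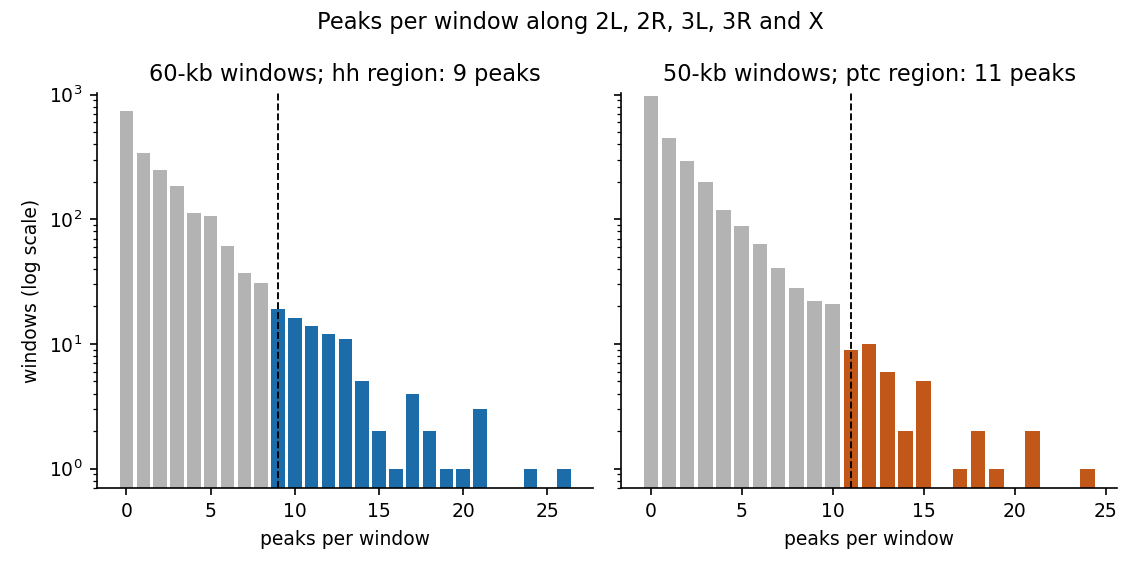
Number of windows (vertical axis, log scale) by the peaks they hold (horizontal axis), for windows of 60 kb on the left and 50 kb on the right along 2L, 2R, 3L, 3R and X. The dashed lines mark the 9 peaks of the hh region and the 11 of the ptc region, and coloured bars are the 93 and 39 windows with at least that many.

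The genes that neighbour both loci were read from a RefSeq gene table of release 6, by name and order only. The protein-coding genes on either side of hh were CG31457 and unk (unkempt), and those on either side of ptc were CG8635 and Acsl, a long-chain acyl-CoA synthetase gene. The table also placed the noncoding gene lncRNA:CR44281 inside ptc. The peaks are on release 5 and positions were not converted, so it is not stated which peaks lay at a promoter, in an intron or in a neighbouring gene, and a peak in either region need not act on hh or ptc.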

How the data were processed

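The file analysed was 1 peak list for 2 ChIP and 2 input libraries. It uses FlyBase release 5 and names MACS as its source, per the file headers. The submitters' processing notes name BWA and MACS2, the build BDGP5, and CASAVA in versions 1.7.0.2 and 1.7.0.3, with no role for any. Threshold, read filters and pooling of replicates: not given in the sources used here. The score of each peak, which has no name or scale in the file, is as the authors deposited it. The labels do not say whether replicates were separate collections, and their collection protocol also mentions a later egg-laying window than the stage label.

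Scores were compared with -log10 of Poisson upper tails at whole-number pileups, for expected values from 1 to 400. A value of 71.7 accounted for 4345 of 4589 scores (94.7%) to within 0.01, and the best value more than 1% away from it for 34.9%. Scores simulated with this same Poisson formula and 1 expected pileup gave that pileup back. This checks the code, not whether the authors' score is of that kind. If it is, the implied pileup is known to within 1. Folds are over this single expectation, not over the input at each place. Windows began at the first base of each arm and ended before the last peak. The work used SciPy 1.17.1 and NumPy 2.4.6, with pandas 2.3.3, in Python 3.11.15, and plots were drawn with matplotlib 3.10.9.

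The regions, gene lists and measures were chosen with earlier results of these data known. All 20 peaks are accounted for. By the rule for named items, the 3 highest, the widest and the lowest peak of each region and the genes hh and ptc were named, and further peaks were named after their values were seen. No genome or annotation of release 5 was used here, so the planned search for motifs, the placement of peaks in genes and the description of 20 other pathway genes were not run, and no sequence is shown.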

Additional observations from a re-analysis of the deposited data

How the results depend on the processing

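The values without a test were recomputed under other settings; shifted or X-free windows, pileups 1 higher and other distances between weak and strong peaks were chosen after the data were seen. Reducing the list by score to its top 50%, 25% or 10% can only lower counts and covered shares, by construction. The hh region then held 5, 4 and 1 peaks and the ptc region 5, 4 and 3. The covered share was 14.1%, 10.8% and 4.88% at hh and 22.3%, 20.6% and 17.4% at ptc. The difference in density, hh minus ptc, was -0.7 peaks per 10 kb as deposited and -0.167, -0.133 and -0.433 in these subsets. That in median score, 11.8 as deposited, turned to -25.2 and -26.8 and then to 110 in the last, where 1 hh peak was left. That in median width, 301 bp as deposited, turned to -552, -1276 and -357 bp. With peaks closer than 1000 bp merged, 5 hh and 4 ptc peaks covered 18.3% and 32.3%, and the differences turned in sign to 0.0333 peaks per 10 kb, -0.185 in score and -1819 bp; merging within 200 bp gave 804 bp. With both regions shortened by 10 kb at each end, 7 ptc peaks remained, the covered shares were 20.9% and 22.4%, and the difference in width was 578 bp. With both lengthened, the shares were 12.4% and 18.7% and the difference in density was -0.446. With both regions 50 kb long, the hh share was 19.9% and the difference in density -0.4. Without X, 5.82% of windows of 60 kb held at least as many peaks as the hh region. The ptc region kept the larger covered share in all of these settings. No paired analysis was possible because libraries have no values of their own in the list, nor could a replicate be omitted. Since sequencing depth is unknown, a stretch without a peak cannot be read as free of TCF.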
